A study of Mus musculus with 2 samples.

Results

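The 7 genes of major histocompatibility complex (MHC) class II presentation described here are Cd74, H2-Aa, H2-Ab1, H2-Eb1, H2-DMa, H2-DMb1 and Ciita, chosen by name from the 18595 genes of the deposited table, and all 7 were measured. They were read in single cells of mouse esophagus, stripped of its muscle and sequenced with the 10x Genomics 3′ chemistry, in which each captured RNA molecule carries a unique molecular identifier (UMI). Keap1 cKO is the library of K5CreERT2::Keap1 floxB/floxB mice, with 2381 cells, and control is the library of Keap1 floxB/floxB mice, with 2472 cells. Both carry the floxed Keap1 alleles on a hybrid of C57BL/6J and BALB/c, and Keap1 cKO adds a Cre recombinase driven by the keratin 5 promoter, which is active in basal keratinocytes and not in leukocytes or endothelium. There was 1 library per genotype, so no difference between genotypes could be tested. Ages, the number of mice behind each library, the induction of the Cre and the H2 haplotypes carried could not be read from the labels.

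MHC class II molecules carry peptides from ingested proteins to the surface of antigen presenting cells, where CD4+ T cells read them. An alpha and a beta chain pair in the endoplasmic reticulum around the invariant chain CD74, which is cut down in endosomes until H2-DM exchanges its last fragment for a peptide. CIITA is the coactivator that switches the whole set on, constitutively in dendritic cells, macrophages and B cells, and after interferon gamma in other cells such as endothelium and keratinocytes. CIITA does not bind DNA itself but sits on factors bound to the X box and the Y box of class II promoters.

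The promoters are shown because CIITA acts through these boxes at class II promoters. On the GRCm38.p6 build, H2-Ab1 (chr17:34257689-34269419, plus strand), H2-Aa (chr17:34282744-34287823, minus strand), H2-Eb1 (chr17:34305867-34316674, plus strand), H2-DMa (chr17:34119541-34139101, plus strand) and H2-DMb1 (chr17:34153072-34160230, plus strand) lie together in the class II region, and Ciita lies on chromosome 16. RefSeq promoter windows of 300 bases on GRCm38.p6 were matched by symbol for 4 of the 7 genes, H2-DMa with 2 windows. Each line runs 5′ to 3′ on the strand of the gene, from 250 bases before the start to 50 after it. The capitals mark an X-box-like TNGNAAC and the Y box letters ATTGG that follow it.
H2-Aa, chr17:34287774-34288073, minus strand: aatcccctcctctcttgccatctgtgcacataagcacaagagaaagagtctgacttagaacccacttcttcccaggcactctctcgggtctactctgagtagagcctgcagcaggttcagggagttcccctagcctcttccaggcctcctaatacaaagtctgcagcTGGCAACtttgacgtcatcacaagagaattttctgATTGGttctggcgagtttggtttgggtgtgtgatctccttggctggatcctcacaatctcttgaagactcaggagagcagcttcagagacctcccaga
H2-Eb1, chr17:34305617-34305916, plus strand: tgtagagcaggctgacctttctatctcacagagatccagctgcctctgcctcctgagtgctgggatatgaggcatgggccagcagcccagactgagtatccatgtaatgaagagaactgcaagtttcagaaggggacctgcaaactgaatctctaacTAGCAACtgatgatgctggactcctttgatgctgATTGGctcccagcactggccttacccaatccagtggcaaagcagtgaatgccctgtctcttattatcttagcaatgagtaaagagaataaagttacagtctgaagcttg
H2-DMb1, chr17:34152941-34153240, plus strand: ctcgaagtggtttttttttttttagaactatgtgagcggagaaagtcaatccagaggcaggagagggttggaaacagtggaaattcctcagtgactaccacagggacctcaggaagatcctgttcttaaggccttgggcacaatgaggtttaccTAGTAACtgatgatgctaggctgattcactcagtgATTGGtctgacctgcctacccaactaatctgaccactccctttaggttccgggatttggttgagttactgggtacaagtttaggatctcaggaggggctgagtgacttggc

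In H2-Aa the X-like letters began 83 bases before the start, in H2-Eb1 93 and in H2-DMb1 96, and ATTGG began 35, 34 and 35 bases further on. The pair, with ATTGG starting 30 to 50 bases after TNGNAAC on the same strand, was present in 249 of 32851 promoter windows (0.758%) searched on both strands. Alone, TNGNAAC was present in 35.2% of the windows and ATTGG in 37.4%. The letters were chosen after these sequences had been read, so the 3 matches are a description. Neither window of H2-DMa, chr17:34122582-34122881 and chr17:34125268-34125567, holds the pair. Both lie inside the span of the gene given above, and no window at another start of H2-DMa was examined.

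In both libraries the 7 genes were concentrated in leukocytes. Summed over the 7 genes, Keap1 cKO held 111335 class II UMIs, or 4276 CPM (UMIs per 1000000 UMIs of the library), and control held 49060, or 1608 CPM. Clusters 2, 12 and 16 of the authors' clustering held 91.3% of these UMIs in Keap1 cKO and 91.6% in control. Of each library's class II UMIs, cluster 12 held 37.6% in Keap1 cKO and 19.2% in control, while cluster 2, labelled myeloid, held 44.3% in Keap1 cKO and 71.2% in control. These libraries also differed in their cells: cluster 2 made up 14.95% of cells in Keap1 cKO and 6.84% in control, and cluster 12 made up 7.48% in Keap1 cKO and 1.38% in control.

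**Figure D1:**
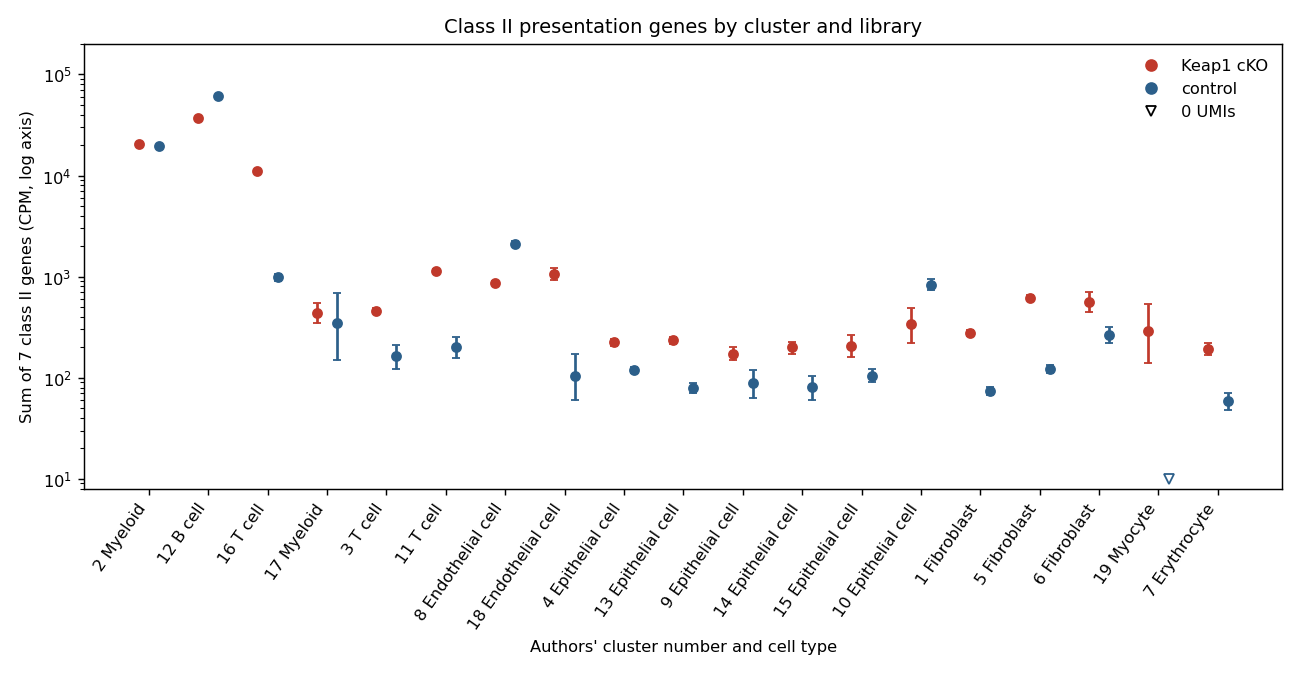
Summed level of the 7 class II genes (CPM, log axis) in each of the authors' 19 clusters, named by the authors' cell type, in Keap1 cKO (red, left) and control (blue, right). Bars are 95% exact Poisson intervals that cover counting error only. Clusters 2 and 12 stand highest in both libraries, and cluster 8 is lower in Keap1 cKO (863 CPM) than in control (2114 CPM).

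The cells behind the labels were checked against marker lists. Cluster 2 carried the macrophage list at 13872 CPM in Keap1 cKO and 20567 CPM in control, with all 10 genes seen. Cluster 12 is annotated as B cells, but the 3 B cell genes measured of the 8 listed summed to 91.8 CPM there in Keap1 cKO and 105 CPM in control. The Langerhans list reached 3381 CPM there in Keap1 cKO and 7038 CPM in control, so the cluster is called cluster 12 here. That list holds Cd207 (the langerin of epidermal and mucosal dendritic cells), Epcam, Mfge8, Cd24a and Il34. A Cd207 UMI was seen in 39 of the 178 cells of cluster 12 in Keap1 cKO and 10 of the 34 in control. The 9 genes of the endothelial list were all seen in cluster 8, at 7491 CPM in Keap1 cKO and 7652 CPM in control. Depth was 26036522 UMIs in Keap1 cKO and 30501227 in control, at 500 to 100520 UMIs per cell, and 5 cell barcodes occur in both libraries.

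Red blood cells, cluster 7, are not known to transcribe class II genes and give the level of free RNA. There the sum of the 7 genes was 192 CPM in Keap1 cKO (232 UMIs in 120 cells) and 58.4 CPM in control (112 UMIs in 178 cells), a log2 ratio of 1.71 (1.38 to 2.05). Every interval given here is a 95% interval of counting error alone, and every log2 ratio is Keap1 cKO over control. In red cells 4 of the 7 genes had the 20 UMIs over both libraries that a ratio was asked to rest on, and all 4 were at least 1.5-fold higher in Keap1 cKO, beside 17.7% of the 933 genes measured there. Cd74 was at 0.6 UMIs per red cell in Keap1 cKO and 0.185 in control, with a UMI in 38.3% of red cells in Keap1 cKO and 17.98% in control at median depths of 10271.5 UMIs in Keap1 cKO and 10831 in control. A low class II level in a non-presenting cluster is therefore read beside this background, which differs between the libraries.

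Ciita, the master regulator, was found mainly in clusters 2 and 12, where the genes it switches on were. In cluster 2 it was at 120.5 CPM in Keap1 cKO and 87.8 CPM in control, a log2 ratio of 0.46 (0.17 to 0.75), with a UMI in 39.3% of cells in Keap1 cKO and 41.4% in control, and per cell the log2 ratio was -0.17 (-0.46 to 0.12). In cluster 12 it was at 247 CPM in Keap1 cKO and 347 CPM in control (-0.49, -0.92 to -0.04). In red cells it had 1 UMI in Keap1 cKO and 0 in control.

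In T cell cluster 3 of Keap1 cKO Ciita made up a larger part of the class II UMIs than in red cells or cluster 2. It had 64 UMIs in 56 of 378 Keap1 cKO cells (14.8%), against 2 UMIs in 1 of 59 control cells (1.69%). Median depths there were 8224.5 UMIs in Keap1 cKO and 5299 in control. Among cells with fewer than 20 class II UMIs, Ciita made up 4.62% (3.57 to 5.86) of the class II UMIs of cluster 3 in Keap1 cKO, against 0.431% (0.01 to 2.38) in Keap1 cKO red cells, none of which reached 20. Over all cells of Keap1 cKO cluster 2 it was 0.591% (0.53 to 0.66). Under the same limit of 20, the share was 3.85% (0.47 to 13.2) in control cluster 3, on 2 Ciita UMIs. It was 2.31% (1.12 to 4.22) in T cell cluster 11 of Keap1 cKO. Cluster 16 of Keap1 cKO, also annotated as T cells, had 63 Ciita UMIs in 18 of its 48 cells (37.5%). Of these, 12 lay in 9 of its 37 cells under that limit, whose Ciita share was not computed, so a high share is not shown to be particular to cluster 3. In control, Ciita made up 2.08% in cluster 8 (0.57 to 5.25) and in cluster 10 (0.77 to 4.46). Per cell, over all cells of cluster 3, it was 20.3 times (3.52 to 815) the red cell level in Keap1 cKO, while Cd74 was 2.41 times (1.88 to 3.13) and H2-Aa 1.57 times (1.15 to 2.20). So the regulator stood above free RNA further than its targets did, resting on 1 Ciita UMI in red cells.

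The Ciita locus overlaps Dexi on the opposite strand, and the labels do not say whether the authors' counting used strand. Dexi was at 91.3 CPM in Keap1 cKO and 78.1 CPM in control in cluster 3, and at 10.7 CPM in Keap1 cKO and 12.9 CPM in control in cluster 2. In fibroblast cluster 1 Dexi was at 36.8 CPM in Keap1 cKO and 36.9 CPM in control, where Ciita had 4 UMIs in Keap1 cKO and 1 in control. Whether Dexi reads enter the Ciita count in T cells was not tested.

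In cluster 2 the alpha and beta chains differed little between genotypes as CPM. H2-Aa, the alpha chain of I-A, was at 3745 CPM in Keap1 cKO and 3172 CPM in control (0.24, 0.19 to 0.29). H2-Ab1, its beta chain, was at 3259 CPM in Keap1 cKO and 2759 CPM in control (0.24, 0.19 to 0.29), and H2-Eb1, the beta chain of I-E, was at 3027 CPM in Keap1 cKO and 2509 CPM in control (0.27, 0.22 to 0.33). As CPM all 3 were slightly higher, within 1.21-fold, but as UMIs per cell they were lower, with log2 ratios of -0.39 for H2-Aa, -0.39 for H2-Ab1 and -0.36 for H2-Eb1. Values per cell are not scaled for depth, and cells of cluster 2 were shallower in Keap1 cKO. Its 356 cells there held 2422549 UMIs (median 6473), and its 169 control cells held 1777352 (median 7839). Cd74, the invariant chain, was at 9396 CPM in Keap1 cKO and 10208 CPM in control (-0.12, -0.15 to -0.09). H2-DMa, the alpha chain of the peptide exchanger, was at 376 CPM in Keap1 cKO and 526 CPM in control (-0.49, -0.62 to -0.35), while its partner H2-DMb1 was at 457 CPM in Keap1 cKO and 391.6 CPM in control (0.22, 0.08 to 0.36). The 2 chains of H2-DM thus lay on opposite sides of 0 as CPM, and both below it per cell, at -1.11 for H2-DMa and -0.41 for H2-DMb1.

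None of the 7 genes was past 1.5-fold in cluster 2, where 15.8% of 9660 genes were at least 1.5-fold higher and 10.9% at least 1.5-fold lower in Keap1 cKO. Their median log2 ratio was 0.24, beside 0.08 over all genes measured. The median cell held 119 class II UMIs in Keap1 cKO and 153 in control, or 2.02% of its UMIs in Keap1 cKO and 1.96% in control. Counted per cell instead of as CPM, the sum was lower in Keap1 cKO, with a log2 ratio of -0.58 that is not scaled for the lower depth of these cells. The macrophage list moved in the same cells, as given above, and its part in these ratios was not tested.

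**Figure D2:**
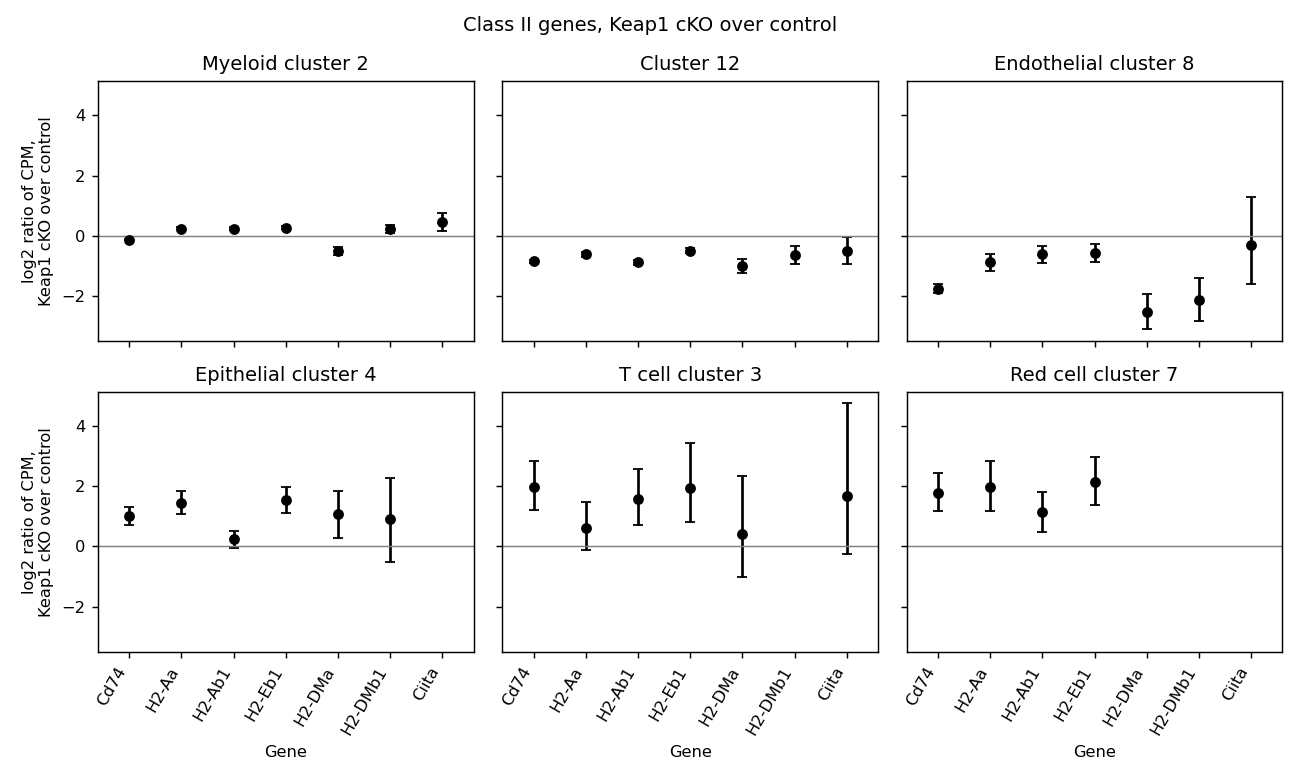
Log2 ratio of CPM, Keap1 cKO over control, for each class II gene with a UMI in each library and 20 or more in all, in 6 clusters. Bars are 95% intervals of counting error and the grey line marks no difference. The genes lie near 0 in cluster 2, below 0 in clusters 12 and 8, and at or above 0 in clusters 4, 3 and 7. H2-Ab1 is the lowest of the 4 abundant genes in epithelial cluster 4 (0.24) and in red cell cluster 7 (1.15).

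The other genes of the pathway in cluster 2 are counted against the 15.8% of all genes that were at least 1.5-fold higher and the 10.9% lower. Of 7 endosomal processing genes, 3 were at least 1.5-fold higher and 0 lower. Lgmn, the asparaginyl endopeptidase that opens antigens and the invariant chain, was at 672 CPM in Keap1 cKO and 294 CPM in control (1.19, 1.05 to 1.34). Ctss, the cathepsin that trims the invariant chain in presenting cells, was at 1444 CPM in Keap1 cKO and 876 CPM in control (0.72, 0.63 to 0.81), and Ctsb, another endosomal cathepsin, was at 1724 CPM in Keap1 cKO and 1260 CPM in control. Of 8 measured genes of the interferon gamma axis, 4 were higher and 0 lower. Ifngr1, the ligand-binding receptor chain, was at 528 CPM in Keap1 cKO and 227 CPM in control (1.22, 1.06 to 1.38), and Irf8, a myeloid transcription factor, was at 92.9 CPM in Keap1 cKO and 40.5 CPM in control (1.20, 0.81 to 1.60). Of 5 costimulation and checkpoint ligands, 2 were lower and 0 higher. Cd86, which engages CD28 on T cells, was at 41.7 CPM in Keap1 cKO and 90.6 CPM in control (-1.12, -1.49 to -0.75), and Cd83, a maturation marker, was at 31.4 CPM in Keap1 cKO and 50.1 CPM in control (-0.67, -1.14 to -0.22).

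Of the neighbours of the 7 genes in the class II region, 2 had enough UMIs in cluster 2 and 1 was lower. H2-DMb2, a second H2-DM beta chain gene closely related to H2-DMb1, was at 24.8 CPM in Keap1 cKO and 59.6 CPM in control (-1.27, -1.75 to -0.80), and reads of such near copies may be split between them. H2-Ob, the beta chain of the H2-DM inhibitor H2-O, had 21 UMIs in Keap1 cKO and 12 in control. Of the 8 genes of the promoter complex, 1 was higher and 0 lower. Rfx5, the X box factor, had 17 UMIs in Keap1 cKO and 4 in control, and the coactivator Crebbp was at 118 CPM in Keap1 cKO and 95.1 CPM in control.

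Cluster 12 held the highest class II levels and was lower in Keap1 cKO. The sum was at 36656 CPM in Keap1 cKO (178 cells) and 61611 CPM in control (34 cells), a log2 ratio of -0.75 (-0.78 to -0.72). Of the 7 genes, 5 were at least 1.5-fold lower and 0 higher, beside 15.7% of 6921 genes lower and 26.2% higher there. At 2-fold 0 were lower, beside 6.68% of genes. Their median log2 ratio was -0.63, beside 0.10 over all genes.

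By role, each gene of cluster 12 lay on the same side as CPM. Cd74 was at 16137 CPM in Keap1 cKO and 28827 CPM in control (-0.84, -0.88 to -0.79). H2-Aa was at 6660 CPM in Keap1 cKO and 10178 CPM in control (-0.61), and H2-Ab1 was at 6237 CPM in Keap1 cKO and 11460 CPM in control (-0.88). H2-Eb1, short of 1.5-fold like Ciita, was at 6288 CPM in Keap1 cKO and 8837 CPM in control (-0.49). H2-DMa was at 624 CPM in Keap1 cKO and 1243 CPM in control (-0.99), and H2-DMb1 at 464 CPM in Keap1 cKO and 719.5 CPM in control (-0.63).

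That direction was not the same in cells of cluster 12 with and without Cd207, a split that also followed depth. Cells with a Cd207 UMI numbered 39 in Keap1 cKO and 10 in control, and held 47928 class II CPM in Keap1 cKO and 81006 CPM in control. In the cells without one, 139 in Keap1 cKO and 24 in control, the log2 ratio of the sum was 0.56, the opposite side of 0. These 24 control cells held 884 class II UMIs, 363 of them in 1 cell. Median depth with a Cd207 UMI was 13727 UMIs in Keap1 cKO and 13584.5 in control. In cells with 0 Cd207 and Ccr7 UMIs it was 1036 in Keap1 cKO and 826 in control. The dendritic list was at 1159 CPM in Keap1 cKO and 386 CPM in control in this cluster, and the erythroid list at 13712 CPM in Keap1 cKO and 44931 CPM in control, and their part in the ratio was not tested. Over the whole cluster median depth was 1350.5 UMIs in Keap1 cKO and 1017 in control. The median cell held 33.5 class II UMIs in Keap1 cKO and 21.5 in control. Per cell, the log2 ratio of the sum was -0.23, and those of H2-Eb1 and Ciita turned to 0.02 each.

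Beside the 7 genes in cluster 12, Irf1, an interferon gamma target that drives Ciita, was at 26.2 CPM in Keap1 cKO and 72.0 CPM in control (-1.46, -2.49 to -0.31). Irf8 was at 380 CPM in Keap1 cKO and 216 CPM in control (0.81, 0.30 to 1.37), and the axis as a whole had 3 genes higher and 2 lower of 8, beside 26.2% of all genes higher and 15.7% lower. March1, the ubiquitin ligase that removes class II from the surface, was at 93.6 CPM in Keap1 cKO and 183 CPM in control (-0.97, -1.58 to -0.31), the only 1 of 7 endosomal processing genes past 1.5-fold. H2-Oa, the alpha chain of H2-O, had 63 UMIs in Keap1 cKO and 2 in control, and its partner H2-Ob had 30 in Keap1 cKO and 10 in control (-1.32, -2.39 to -0.12). Such counts, like those of Icosl below, are not scaled for the cluster's total of 1143365 UMIs in Keap1 cKO and 152879 in control. Cd86 was again lower, at 101 CPM in Keap1 cKO and 203 CPM in control (-0.999, -1.58 to -0.38), while 4 of the 6 measured ligands were higher, with Icosl, the ligand of ICOS, at 49 UMIs in Keap1 cKO and 2 in control. H2-Ea and H2-Ea-ps are not analysed here.

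Cluster 16, annotated as T cells, carried class II in a few cells. Its sum was 11187 CPM in Keap1 cKO and 989 CPM in control (3.5, 3.38 to 3.62), with all 7 genes at least 1.5-fold higher, beside 33.1% of 7694 genes. Cells with at least 20 class II UMIs numbered 11 of 48 in Keap1 cKO and 1 of 24 in control, and held 98.0% of the cluster's class II UMIs in Keap1 cKO and 89.8% in control. The median cell held 6.5 in Keap1 cKO and 2.5 in control. The ratio therefore rests on these 12 cells, and Langerhans markers moved with it, at 1531 CPM in Keap1 cKO and 261 CPM in control. The cluster also held other cells in each library. A Cd3 UMI was seen in 42 of 48 cells in Keap1 cKO and 7 of 24 in control, and the T cell list was at 3497 CPM in Keap1 cKO and 674 CPM in control. The keratinocyte list was at 630 CPM in Keap1 cKO and 15110 CPM in control, and the all-leukocyte list at 4147 CPM in Keap1 cKO and 846 CPM in control. The difference in class II level cannot be told apart from this difference in cells.

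In endothelial cluster 8 the 7 genes were lower in Keap1 cKO. The sum was 863 CPM in Keap1 cKO (203 cells) and 2114 CPM in control (53 cells), a log2 ratio of -1.29 (-1.40 to -1.19). Of the 7 genes, 5 were at least 1.5-fold lower and 0 higher, beside 9.84% of 10055 genes lower and 26.1% higher there. At 2-fold 3 were lower, beside 3.54% of genes. Their median log2 ratio was -0.88, beside 0.17 over all genes.

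The peptide loading genes and the invariant chain differed most in cluster 8. H2-DMa was at 17.7 CPM in Keap1 cKO and 101 CPM in control (-2.52, -3.10 to -1.93), and H2-DMb1 was at 13.5 CPM in Keap1 cKO and 58.2 CPM in control (-2.11, -2.83 to -1.38). Cd74 was at 349 CPM in Keap1 cKO and 1177 CPM in control (-1.76, -1.90 to -1.61). H2-Aa was at 154 CPM in Keap1 cKO and 284 CPM in control (-0.88, -1.15 to -0.60), H2-Ab1 at 167 CPM in Keap1 cKO and 255 CPM in control (-0.61, -0.89 to -0.33), and H2-Eb1 at 153 CPM in Keap1 cKO and 227 CPM in control (-0.57, -0.87 to -0.27). Ciita had 26 UMIs in Keap1 cKO and 6 in control (-0.29, -1.60 to 1.28). The interval of Ciita spans 0, and those of the other 6 do not.

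A minority of endothelial cells held most of the signal in both libraries. Cells with at least 20 class II UMIs numbered 7 of 203 in Keap1 cKO and 10 of 53 in control, and held 69.4% of the class II UMIs in Keap1 cKO and 82.9% in control. In Keap1 cKO 1 cell held 1329 of the 2435 UMIs. The median cell held 3 class II UMIs in either library, while the 90th percentile was 10 in Keap1 cKO and 57.8 in control. The medians were equal in UMIs, at median depths of 13573 UMIs in Keap1 cKO and 9829 in control, and the upper tails differed. As a percentage of the cell's UMIs the median was 0.0247% in Keap1 cKO and 0.0367% in control. In cells with fewer than 20 class II UMIs Cd74 was at 81.2 CPM in Keap1 cKO and 208 CPM in control, so the difference was not confined to the tails.

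Endothelial transcripts were present in all of these high cells and myeloid transcripts in some. Pecam1, an endothelial adhesion molecule, was seen in all 7 high cells of Keap1 cKO and all 10 of control. In Keap1 cKO it was at 760 CPM in the high cells and 1590 CPM in the others. In control it was at 1468 CPM in the high cells and 1395 CPM in the others. Median depth was 28107 UMIs in the high cells and 13338 in the others in Keap1 cKO, and 11441 and 9212 in those of control. Lyz2, the lysozyme of myeloid cells, was at 587 CPM in the high cells and 68.0 CPM in the other cells in Keap1 cKO, and at 1540 CPM and 43.2 CPM in those of control. It was seen in 6 of the 7 high cells and 94 of the 196 others in Keap1 cKO, and in 4 of the 10 high cells and 15 of the 43 others in control. Tyrobp, a myeloid adaptor, had 48 UMIs in 6 of the 7 high cells of Keap1 cKO and 24 UMIs in 3 of the 10 of control. Without the high cells the log2 ratio of the sum was -0.79 and that of H2-Eb1 alone 0.02, and without cells that held a Ptprc UMI (the pan-leukocyte CD45) the ratio of the sum was -2.20. A Ptprc UMI was seen in 6 of the 7 high cells and 42 of the 196 others in Keap1 cKO. In control it was seen in 2 of the 10 high cells and 3 of the 43 others. Leaving such cells out thus took a larger part of the high cells from Keap1 cKO than from control. The macrophage list over the whole cluster was at 296 CPM in Keap1 cKO and 614 CPM in control. The T cell list was at 696 CPM in Keap1 cKO and 95.8 CPM in control. The part of leukocyte RNA in the ratio was not tested.

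Against free RNA, endothelial Cd74 was 8.08 times (6.36 to 10.4) the red cell level per cell in Keap1 cKO and 63.8 times (44.96 to 93.5) in control. The high cells held 769 of the 984 Cd74 UMIs in Keap1 cKO and 545 of the 627 in control. Leaving out these cells, Cd74 was 1.83 times (1.39 to 2.42) the red cell level in Keap1 cKO and 10.3 times (6.79 to 15.9) in control. With each cell thinned to 500 UMIs and averaged over all possible draws, 6.36% of cluster 8 cells had a Cd74 UMI in Keap1 cKO and 22.8% in control, and of red cells 2.90% in Keap1 cKO and 0.87% in control. In a single seeded draw it was 5.91% (3.09 to 10.1) of cluster 8 cells in Keap1 cKO and 22.6% (12.3 to 36.2) in control. In that draw 1 of 120 red cells had one in Keap1 cKO and 4 of 178 in control, the opposite order to the average, so no order of the red cell shares is read from it. Before thinning the cluster 8 shares were 57.6% in Keap1 cKO and 54.7% in control, at median depths of 13573 UMIs in Keap1 cKO and 9829 in control. No cell fell short of the thinned depth in either library.

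The interferon gamma axis of cluster 8 had 1 of 7 measured genes lower and 1 higher, beside 9.84% of all genes lower and 26.1% higher. The lower gene, Irf1, a transcription factor induced by interferon gamma, was at 47.8 CPM in Keap1 cKO and 107 CPM in control (-1.16, -1.62 to -0.69). The higher gene, Socs1, an inhibitor of cytokine signalling, had 28 UMIs in Keap1 cKO and 3 in control (0.82, -0.88 to 3.18). The kinase Jak1 was at 302 CPM in Keap1 cKO and 285 CPM in control (0.08, -0.17 to 0.34), and Ifngr1 at 122 CPM in Keap1 cKO and 156 CPM in control (-0.35, -0.70 to 0.01). Of 6 measured endosomal genes none was past 1.5-fold, among them Ctsb at 372 CPM in Keap1 cKO and 407 CPM in control. Of 8 promoter complex genes 3 were higher and 0 lower, near the shares over all genes, with Rfxank, a subunit of the RFX complex, at 33 UMIs in Keap1 cKO and 1 in control. These counts are not scaled for the cluster's total of 2821476 UMIs in Keap1 cKO and 532550 in control.

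Ifng itself was measured in T cell cluster 11, where it had 51 UMIs, or 43.1 CPM, in Keap1 cKO and 85 UMIs, or 244 CPM, in control (-2.50, -3.03 to -1.98). Irf1 was at 57.5 CPM in Keap1 cKO and 161 CPM in control in the same cells (-1.48, -2.02 to -0.95). In T cell cluster 3 Ifngr1 was at 77.7 CPM in Keap1 cKO and 222 CPM in control (-1.51, -1.90 to -1.11). The class II sum in these clusters was higher in Keap1 cKO, at 1140 CPM against 201 CPM in control in cluster 11 and 460 CPM against 162 CPM in control in cluster 3. In cluster 11, 1 Keap1 cKO cell held 46.6% of the class II UMIs, and the 4 cells with at least 20 class II UMIs held 67.9%. Any relation of the class II sum to Ifng or Ifngr1 was not tested.

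**Figure D3:**
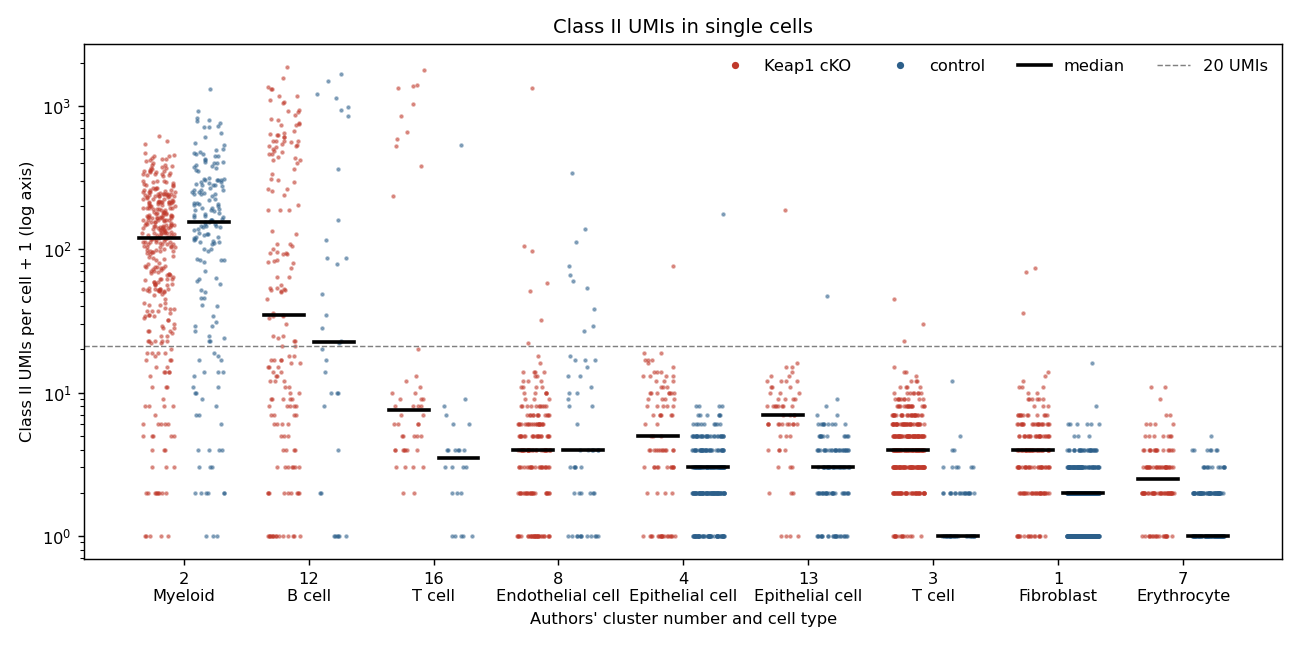
Class II UMIs per cell plus 1 (log axis) in 9 clusters, each dot a cell, Keap1 cKO left in red and control right in blue. Black bars are medians and the dashed line is at 20 UMIs. Most cells of cluster 2 lie above the line, cluster 8 has 7 such cells in Keap1 cKO and 10 in control, and the red cells of cluster 7 reach 10 UMIs in Keap1 cKO and 4 in control.

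Keratinocytes held little class II RNA. Over the 6 epithelial clusters the sum was 218 CPM in Keap1 cKO (422 cells) and 121 CPM in control (848 cells), a log2 ratio of 0.85 (0.75 to 0.95), against the 1.71 of red cells. Of the 6 genes with 20 UMIs, 5 were at least 1.5-fold higher in Keap1 cKO, beside 17.5% of 12638 genes, and 0 were lower, beside 15.8%. At 2-fold 2 were higher, beside 10.6% of genes. The median log2 ratio of the 6 was 0.85, beside -0.02 over all genes. Cd74 was at 70.0 CPM in Keap1 cKO and 36.6 CPM in control (0.94, 0.76 to 1.12), and Ciita had 8 UMIs in Keap1 cKO and 9 in control.

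The epithelial clusters did not move together. The sum was higher in Keap1 cKO in cluster 4 (0.90, 0.75 to 1.06), cluster 13 (1.56, 1.37 to 1.76), cluster 9 (0.98, 0.47 to 1.52) and cluster 14 (1.31, 0.87 to 1.77). In cluster 10 it was lower, at 337 CPM in Keap1 cKO (27 UMIs) and 835 CPM in control (289 UMIs), a log2 ratio of -1.31 (-1.94 to -0.74). With the epithelial clusters of at least 50 cells in each library weighted equally the log2 ratio was -0.21, and with the mean of each cell's CPM it was -0.0008. The erythroid list in cluster 10 was at 9093 CPM in Keap1 cKO and 72134 CPM in control, its median depth was 809 UMIs in Keap1 cKO and 1178 in control, and the part of either in its ratio was not tested.

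Set against red cells per cell, Cd74 was 3.01 times (2.27 to 4.03) the red cell level in cluster 4 of Keap1 cKO and 3.60 times (2.49 to 5.37) in that of control. In cluster 13 it was 5.71 times (4.35 to 7.57) in Keap1 cKO and 4.07 times (2.72 to 6.22) in control, and in cluster 9 it was 0.667 times (0.46 to 0.96) in Keap1 cKO and 0.615 times (0.30 to 1.20) in control. Cells of clusters 4 and 13 are deeper than red cells, with medians of 26254 and 43123 UMIs in Keap1 cKO and 20487 and 28122 in control. Thinned to 500 UMIs and averaged over all draws, 3.82% of epithelial cells had a Cd74 UMI in Keap1 cKO and 4.79% in control, beside the 2.90% in Keap1 cKO and 0.87% in control of red cells. The single draw gave 3.55% (2.0 to 5.79) of epithelial cells in Keap1 cKO and 3.89% (2.69 to 5.42) in control, and before thinning it was 41.9% in Keap1 cKO and 30.3% in control.

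H2-Ab1 departed from the other abundant genes in keratinocyte clusters 4 and 13. In cluster 4 it was at 59.7 CPM in Keap1 cKO and 50.6 CPM in control (0.24, -0.05 to 0.52). There H2-Aa was at 45.9 CPM in Keap1 cKO and 16.8 CPM in control (1.45, 1.07 to 1.84), H2-Eb1 at 39.4 CPM in Keap1 cKO and 13.6 CPM in control (1.54, 1.12 to 1.97), and Cd74 at 64.3 CPM in Keap1 cKO and 32.2 CPM in control (0.999, 0.70 to 1.30). The interval of H2-Ab1 did not overlap theirs. In cluster 13 its log2 ratio was 0.95 (0.56 to 1.34), beside 1.85 (1.496 to 2.20) for Cd74, 2.14 (1.65 to 2.64) for H2-Aa and 1.71 (1.19 to 2.24) for H2-Eb1. In cluster 14 it was 1.32 (0.51 to 2.21), beside 1.29 for Cd74, 1.12 for H2-Aa and 1.36 for H2-Eb1, and in cluster 9 it was 0.67 (-0.28 to 1.73), beside 0.97 for Cd74, 0.51 for H2-Aa and 1.99 for H2-Eb1. The departure is thus not seen in every keratinocyte cluster. In red cells H2-Ab1 was also the lowest of these genes, at 1.15 (0.49 to 1.82). There Cd74 was at 1.79 (1.18 to 2.43), H2-Aa at 1.97 (1.17 to 2.82) and H2-Eb1 at 2.14 (1.36 to 2.98), with intervals that overlap that of H2-Ab1.

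As a share of the class II UMIs, H2-Ab1 stood highest in 2 keratinocyte clusters of control. Leaving out cells with 20 or more class II UMIs, H2-Ab1 made up 26.9% (23.1 to 31.0) of class II UMIs of cluster 4 in Keap1 cKO and 48.8% (44.8 to 52.9) in control. In red cells it made up 21.1% (16.1 to 26.9) in Keap1 cKO and 31.3% (22.8 to 40.7) in control. Control cluster 15 was at 55.3% (47.5 to 62.9), against 22.2% (12.7 to 34.5) in the 7 Keap1 cKO cells of that cluster, and cluster 13 was at 24.1% (19.9 to 28.8) in Keap1 cKO and 36.9% (31.3 to 42.8) in control. The other epithelial clusters did not show it: cluster 14 was at 29.1% (22.7 to 36.1) in Keap1 cKO and 30.2% (18.3 to 44.3) in control, cluster 9 at 24.9% (18.5 to 32.1) in Keap1 cKO and 30.8% (17.02 to 47.6) in control, and cluster 10 at 22.2% (8.62 to 42.3) in Keap1 cKO and 13.1% (9.48 to 17.6) in control. In fibroblast cluster 1 the share was 25.6% (22.2 to 29.2) in Keap1 cKO and 22.9% (19.2 to 26.8) in control. So the share in clusters 4 and 15 of control stood above that in red cells and in fibroblast cluster 1 of the same library.

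Per cell, over the same cells, H2-Ab1 in cluster 4 of control was 4.82 times (3.39 to 7.06) its own red cell level and H2-Aa 2.37 times (1.42 to 4.15), and in cluster 15 of control they were 6.37 times (4.28 to 9.69) and 2.12 times (1.04 to 4.32). In cluster 4 of Keap1 cKO H2-Ab1 was 3.67 times (2.63 to 5.199) and H2-Aa 2.997 times (2.11 to 4.32). The intervals of H2-Ab1 and H2-Aa overlap in each of these 3 cases. Over all cells of the cluster, cells with an H2-Ab1 UMI made up 58.1% of cluster 4 in Keap1 cKO and 57.5% in control, and those with an H2-Aa UMI 61.3% in Keap1 cKO and 23.3% in control. H2-Ab1 was spread over many cells, with at most 7 class II UMIs of all 7 genes in any cell of control cluster 15.

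**Figure D4:**
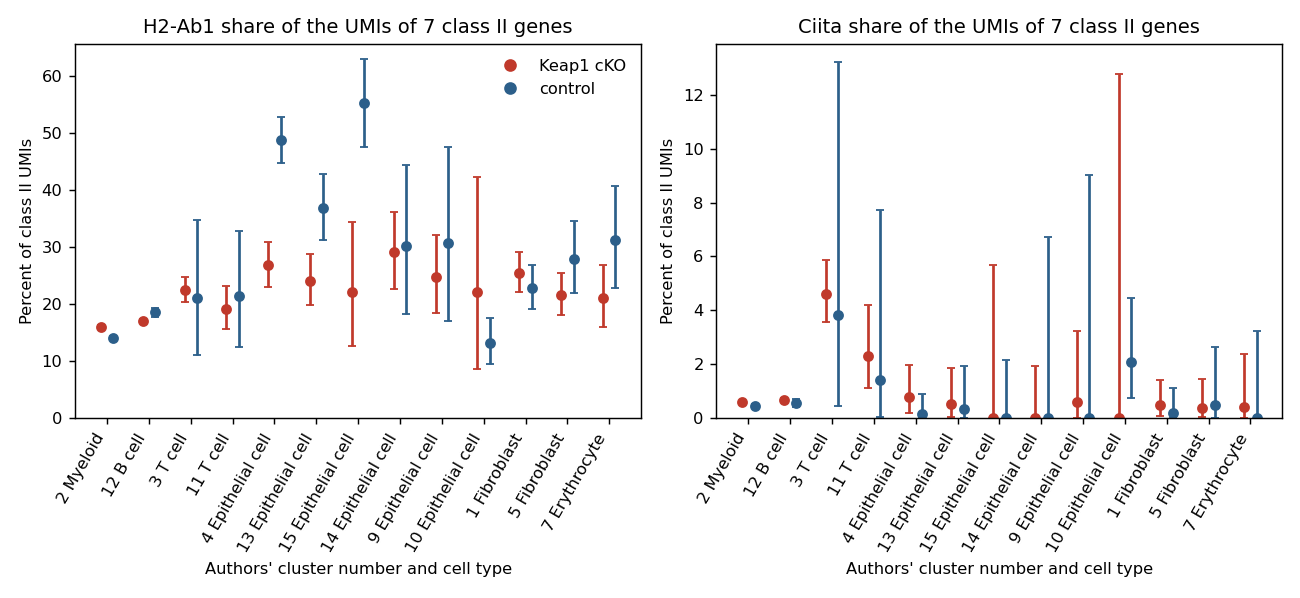
Share of the class II UMIs that H2-Ab1 (left) and Ciita (right) make up in 13 clusters, Keap1 cKO red and control blue, with 95% exact binomial intervals of counting error. Outside clusters 2 and 12 only cells with fewer than 20 class II UMIs are counted. H2-Ab1 is highest in control clusters 15 (55.3%) and 4 (48.8%), and Ciita in cluster 3 (4.62% in Keap1 cKO).

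Around the 7 genes in keratinocytes, 4 of the 7 measured genes of the interferon gamma axis were higher in Keap1 cKO and 0 lower, beside 17.5% of all genes higher and 15.8% lower. Ifngr2, the signalling chain of the receptor, was at 46.3 CPM in Keap1 cKO and 24.8 CPM in control (0.90, 0.68 to 1.12), and Jak1 at 76.6 CPM in Keap1 cKO and 75.4 CPM in control. Of 6 endosomal genes 2 were higher and 0 lower: Ctss was at 11.9 CPM in Keap1 cKO and 5.88 CPM in control (1.02, 0.57 to 1.47) and Lgmn at 18.1 CPM in Keap1 cKO and 9.08 CPM in control (0.996, 0.64 to 1.36). Of 8 promoter complex genes 1 was higher and 1 lower, with Rfx5 at 5.10 CPM in Keap1 cKO and 8.86 CPM in control (-0.80, -1.36 to -0.26). The all-leukocyte list was at 99.8 CPM in Keap1 cKO and 21.7 CPM in control in these cells and at 71.9 CPM in Keap1 cKO and 14.6 CPM in control in red cells, and its part in these ratios was not tested.

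Across 33 profiles of cluster by library with at least 20 cells, each of the 7 genes followed the mean of the other 6 (Pearson r of log2(CPM + 10)), Ciita least at 0.95 and H2-Aa most at 0.99. Among 12992 other genes the profiles most like the mean of the 7 were those of Hepacam2 (r = 0.948), Rnase6 (0.947), Rassf4 (0.944), H2-DMb2 (0.941), Aif1 (0.937), Dcstamp (0.934), Rgs18 (0.930) and Slamf9 (0.928). The profiles share 2 libraries and their free RNA, and Hepacam2 and Dcstamp rest on 191 and 112 UMIs in all, so these values are descriptions.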

How the data were processed

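Per the labels' protocols, tissue was dispersed with trypsin and libraries were made with a 10x Genomics 3′ kit. The submitters' processing notes name Seurat 4.0.2 under R 4.1.1, the mm10 build and Cell Ranger 6.0.1. The authors deposited natural log values, scaled in each cell to a sum of 10000 before adding 1, with their clusters and cell types. From these, UMI counts were recovered: all values were whole within 0.01 UMIs in all 4853 cells. Counts were summed by cluster and library and scaled to CPM (Python 3.11.15, scipy 1.17.1). With 1 library per genotype there was no test: intervals are 95% exact Poisson, conditional binomial or Clopper-Pearson, and genes are counted past 1.5-fold, given 20 UMIs over both libraries. UMIs are a 3′ tag per molecule, independent of gene length. Genes with 0 UMIs in a library, and some with few, are given as counts, which are not scaled for the total of the cluster. No doublet caller was run. Shares were thinned to 500 UMIs per cell in a seeded draw. In each of 4 comparisons simulated with Poisson counts, the ratio intervals held the true value for 94.0% to 96.5% of 200 changed genes. The simulation had no spread between cells or libraries, as the intervals assume, so it does not show their coverage for the real counts. Members and lists were chosen with earlier results of these data known. Of each pathway list the 2 most abundant genes and the 2 with the largest ratio could be named, in addition to the 7 members; 1 gene of the interferon gamma list is not reported here and is left out of its counts. Splits by Cd207, C1q, leukocyte markers and high class II cells, the exclusion of cluster 10 and UMIs per cell were chosen after seeing the data. The genes overlapping H2-DMa and H2-Eb1 on the other strand (among them Brd2 and Gm20513) leave their counts uncertain where strand is not given.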

Additional observations from a re-analysis of the deposited data

Results flagged for a closer look

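The class II sum moved in opposite directions in different cell classes under the same contrast. It was lower in Keap1 cKO than in control in endothelial cluster 8 (log2 ratio -1.29) and in cluster 12 (-0.75), and higher in epithelial cells (0.85). The direction depended on how cells were taken. In cluster 12 cells without a Cd207 UMI it was 0.56. In epithelial cells it was -0.21 with clusters weighted equally, -0.0008 as the mean of each cell's CPM and -1.31 in cluster 10 alone. In red cells, which give the free RNA level, it was 1.71. With 1 library per genotype the difference between these classes was not tested.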

How the results depend on the processing

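Of 252 log2 ratios recomputed under an alternative, 32 lay on the other side of 0, 18 of them for ratios past 1.5-fold as reported, and all 32 are given here. In cluster 2 the log2 ratio of the sum (0.05) was -0.0282 with median-of-ratios scaling, 0.22 without Cd74, 0.0834 in cells with 3 or more C1q UMIs and -0.58 per cell, where H2-Aa was at -0.39, H2-Ab1 at -0.39, H2-Eb1 at -0.36, H2-DMb1 at -0.41 and Ciita at -0.17. In cluster 12 (-0.75), median-of-ratios scaling gave -0.85, and it was -0.39 as the mean of each cell's CPM, -0.79 in cells with at least 1000 UMIs, -0.68 without Cd74 and -0.23 per cell. H2-Eb1 and Ciita (both -0.49) were at 0.02 per cell, and Ciita at 0.11 as the mean of each cell's CPM. In cells with 0 Cd207 UMIs it was 0.56, with Cd74 at 0.66, H2-Aa at 0.42, H2-Ab1 at 0.46, H2-Eb1 at 0.71, H2-DMa at 0.38 and H2-DMb1 at 0.14. At 2-fold, 0 genes were lower there (5 at 1.5-fold). In cluster 8 (-1.29), median-of-ratios scaling gave -1.45, and it was -1.50 with free RNA subtracted, -0.87 without Cd74, -2.20 without cells holding Ptprc, -2.14 without cells of 3 or more leukocyte marker UMIs, -0.79 without cells of 20 or more class II UMIs and -0.82 per cell, with H2-Eb1 at 0.02 without cells of 20 or more class II UMIs, Ciita at 0.18 per cell and 3 genes lower at 2-fold (5 at 1.5-fold). In epithelial cells (0.85) it was 0.40 with free RNA subtracted (H2-Ab1 at -0.02), 1.08 without cluster 10 and 0.97 per cell, with 2 genes higher at 2-fold (5 at 1.5-fold). As the mean of each cell's CPM it was -0.000808, with Cd74 at -0.35, H2-Aa at -0.18, H2-DMb1 at -1.07 and Ciita at -1.56. With epithelial clusters weighted equally it was -0.21, with Cd74 at -0.44, H2-Aa at -0.42, H2-DMb1 at -1.49 and Ciita at -2.41. Ciita, with 8 UMIs in Keap1 cKO and 9 in control, was also at -0.12 with free RNA subtracted and -0.21 without cells of 3 or more leukocyte marker UMIs. The thinned Cd74 share of epithelial cells was 7.10% at 1000 UMIs, 0.237% at 2 or more UMIs and 1.95% without Ptprc cells in Keap1 cKO, and 7.43% at 1000 UMIs and 1.06% at 2 or more UMIs in control. In cluster 8 it was 1.97% at 2 or more UMIs in Keap1 cKO, and 36.5% at 1000 UMIs and 11.3% at 2 or more UMIs in control. The cause of these changes was not tested. No paired analysis was possible because each genotype has 1 library.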
